A study of Mus musculus with 6 samples.

Results

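Zscan4 genes encode proteins with a SCAN domain and zinc fingers, and in the mouse they form a cluster of near-identical copies on chromosome 7. Every row of the deposited count table whose name is Zscan4 followed by 1 lower-case letter was taken, which gave 5 copies (Zscan4a, Zscan4b, Zscan4c, Zscan4d and Zscan4f) of 24421 gene entries. No other row name began with Zscan4. All 5 copies passed the filter on low counts, and each had at least 23 counts in every library. Bulk RNA sequencing compared 2 groups of mouse induced pluripotent stem cells (iPSCs, cells reprogrammed to a state like that of embryonic stem cells), with 3 libraries in each. The SRF KO cells carry the deleted gene of serum response factor on both alleles (SRFΔ/Δ), and the WT cells carry the undeleted conditional allele on both (SRFf/f). Both were grown in medium with serum. The labels do not say how the deletion was induced, whether the lines are 1 clone, whether feeder cells were present, or whether the replicates were separate cultures, so that p-values measure only the spread between these libraries.

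In the embryo, Zscan4 genes are transcribed in a short burst at the 2-cell stage. In cultured embryonic stem cells they are transcribed in a small and changing subset of cells, often together with other 2-cell genes and with the endogenous retrovirus MERVL, whose shared activator is the homeodomain protein DUX. ZSCAN4 protein is known for its role in telomere lengthening and genome stability in these cells. A bulk library averages over all cells of a culture, so that a higher share of cells with Zscan4 RNA and more Zscan4 RNA per cell cannot be told apart here.

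The copies are alike enough that their sequences bear on every value given for them. RefSeq promoter windows (build GRCm38.p6) were matched by symbol for 4 of the 5 copies. Shown are the 216 bases upstream of the start sites that the 4 windows share, 5′ to 3′ on the strand of each gene, with capitals at bases that differ from Zscan4c. The stretches lie at chr7:10905051-10905266 (minus strand), chr7:11005506-11005721 (plus strand), chr7:11166183-11166398 (minus strand) and chr7:11397699-11397914 (plus strand), in the order printed.
Zscan4b: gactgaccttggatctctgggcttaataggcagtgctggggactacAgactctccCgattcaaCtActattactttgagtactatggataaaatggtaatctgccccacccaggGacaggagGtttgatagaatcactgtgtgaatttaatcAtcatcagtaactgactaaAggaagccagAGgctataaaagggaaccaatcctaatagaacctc
Zscan4c: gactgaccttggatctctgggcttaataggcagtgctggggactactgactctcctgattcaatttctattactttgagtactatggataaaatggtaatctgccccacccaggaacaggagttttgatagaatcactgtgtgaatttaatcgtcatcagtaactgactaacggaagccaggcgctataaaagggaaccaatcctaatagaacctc
Zscan4d: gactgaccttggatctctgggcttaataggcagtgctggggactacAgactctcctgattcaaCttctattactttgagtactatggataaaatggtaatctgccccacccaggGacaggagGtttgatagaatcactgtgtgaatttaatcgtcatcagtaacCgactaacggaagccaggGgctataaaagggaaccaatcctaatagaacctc
Zscan4f: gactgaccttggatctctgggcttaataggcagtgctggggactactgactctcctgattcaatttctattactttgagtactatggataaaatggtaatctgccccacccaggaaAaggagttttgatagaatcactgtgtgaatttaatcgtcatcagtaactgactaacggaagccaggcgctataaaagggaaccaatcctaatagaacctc

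Zscan4f differed from Zscan4c at 1 of these 216 bases, Zscan4d at 6 and Zscan4b at 10, and pairwise identity lay between 94.9% and 99.5%. The letters TATAAAA, found at the core of a common promoter element, stood once in each of the 4 stretches, at the same place in all of them. They began 31 bases before the RefSeq start of Zscan4b and Zscan4f, 54 before that of Zscan4c and 65 before that of Zscan4d. Among all 32851 promoter windows, cut to the same length and searched on both strands, 4.35% held these letters. The CArG box, the site that SRF binds, was found in none of the 4 stretches, and 1.26% of all windows held it. The telomere repeat TTAGGG was absent on both strands, against 8% of windows with it. These searches speak only of the letters within this stretch.

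The transcripts are equally close. Between the longest GENCODE M21 transcripts (build GRCm38) identity over aligned bases was lowest for Zscan4b and Zscan4d, at 96.6%, and highest for Zscan4c and Zscan4f, at 99.5%. Reads were 150 bp long, so all windows of 150 bases in each transcript were compared with the other Zscan4 genes of the annotation. Of these windows, 86.2% of Zscan4f, 68.4% of Zscan4b, 61.0% of Zscan4c, 25.1% of Zscan4a and 13% of Zscan4d occurred letter for letter in another Zscan4 gene. At most 0.552% of the windows of any copy occurred in a gene outside the family. GENCODE M21 lists 9 Zscan4 genes, and the 4 that are not among the rows used here (Zscan4e, Zscan4-ps1, Zscan4-ps2 and Zscan4-ps3) were not analysed here. How the authors assigned reads that fit several places is not given in the sources used here. Values of single copies are therefore uncertain. A sum over the 5 copies does not depend on how reads were divided among them, but it can still hold or lack reads of the other 4.

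Zscan4a spans chr7:10794242-10799057 on the minus strand and is annotated as an unprocessed pseudogene, while the other 4 are annotated as protein coding. Zscan4b lies at chr7:10900740-10905050 (minus strand), Zscan4c at chr7:11005745-11010547 (plus strand), Zscan4d at chr7:11161374-11166159 (minus strand) and Zscan4f at chr7:11397915-11402318 (plus strand). The longest transcript of each has 4 exons. From the first to the last copy the cluster spans 608.1 kb.

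Every copy was higher in SRF KO than in WT, by between 1.99-fold and 3.26-fold in mean level. All 5 passed the threshold of 0.05 on the adjusted p from the quasi-likelihood test of edgeR (Benjamini-Hochberg adjustment, all entries tested). Of all 14778 genes tested, 21.2% were called higher in SRF KO by the same rule. In all 5 copies the 3 SRF KO values also lay above the 3 WT values, which was the case for 26.2% of genes tested. The median log2 fold change of the 5 copies was 1.56, against -0.01 for all genes tested. The copies are not 5 independent observations, because a read that fits several of them could have been assigned to any. Levels below are CPM, that is counts scaled to a common library size with the trimmed mean of M values (TMM). Log2 fold changes, from edgeR, set SRF KO against WT and carry a standard error (SE).

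Zscan4c, a copy known to encode the full-length protein, stood at 4.01, 4.19 and 3.87 CPM in the SRF KO libraries, replicates 1 to 3, and at 1.08, 1.83 and 0.802 CPM in their WT counterparts in the same order. The SRF KO libraries lay close together and all above the WT libraries, among which WT replicate 2 was highest. Its log2 fold change was the largest of the family, at 1.73 (SE 0.22, edgeR adjusted p 6.8e-05), and 1.24% of genes tested had a larger one.

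Zscan4b read 4.27, 3.85 and 5.29 CPM in the SRF KO libraries and 1.33, 2.02 and 1.15 CPM in the WT libraries. The lowest SRF KO library was 1.91 times the highest WT library. Its log2 fold change was 1.60 (SE 0.20, edgeR adjusted p 6.79e-05).

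The pseudogene Zscan4a had 3.83, 2.68 and 3.803 CPM in SRF KO, against 0.966, 1.44 and 1.15 CPM in WT. SRF KO replicate 2 was the lowest of its group and still above every WT library. The log2 fold change was 1.56 (SE 0.20, edgeR adjusted p 8.1e-05), so that the rise of the annotated pseudogene lay between those of Zscan4f and Zscan4b.

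Zscan4f, the copy with the most counts, had 6.88, 5.10 and 6.26 CPM in SRF KO, against 2.02, 2.95 and 2.16 CPM in WT. Here too SRF KO replicate 2 was the lowest of its group and WT replicate 2 the highest of its own. The log2 fold change was 1.37 (SE 0.16, edgeR adjusted p 5.05e-05).

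Zscan4d, the copy with the fewest counts, had 1.78, 2.27 and 2.59 CPM in SRF KO, against 0.828, 1.28 and 1.22 CPM in WT. The gap between the groups was the narrowest of the 5 copies, the lowest SRF KO library being 1.39 times the highest WT library. The log2 fold change was 1.03 (SE 0.21, edgeR adjusted p 0.00253), and 5.24% of genes tested had a larger one.

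**Figure D1:**
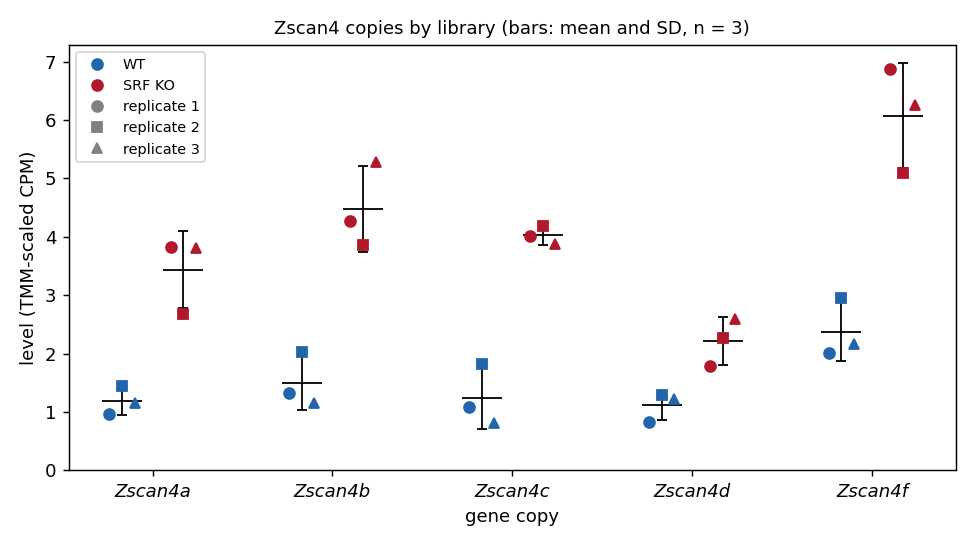
Level of each Zscan4 copy (TMM-scaled CPM, vertical axis) in the 3 WT (blue) and 3 SRF KO (red) libraries, with marker shape for the replicate number and black bars for the mean and SD. In each of the 5 copies all SRF KO points lie above all WT points, and WT replicate 2 is the highest WT library.

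These are low levels. Per library, the copies had between 48 and 185 counts in SRF KO and between 23 and 76 in WT, and between 73.8% and 84.2% of genes tested had a higher mean count than the copy in question. Counting error alone is 20.9% at 23 counts and 7.35% at 185 counts. For Zscan4c the SRF KO libraries had a coefficient of variation of 3.99% and the WT libraries one of 43.0%. For the other 4 copies the corresponding values were between 14.8% and 19.0% in SRF KO and between 20.1% and 30.7% in WT. Whether the groups differ in this spread was not tested, since 3 libraries give little information on a spread.

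WT replicate 2 was the WT library with the most RNA of each of the 5 copies. Over all entries, transposable element subfamilies included, it was the one that differed most from the other WT libraries. The chi-square per degree of freedom of its counts was 12.2 against WT replicate 1 and 14.6 against WT replicate 3, compared with 3.64 between those. Without it the log2 fold changes of the copies were 1.72 for Zscan4a, 1.85 for Zscan4b, 2.08 for Zscan4c, 1.15 for Zscan4d and 1.55 for Zscan4f. Each lay above the value with all libraries, which follows from leaving out the highest WT library. Among the SRF KO libraries, replicate 2 differed most from the others, with a chi-square per degree of freedom of 3.96 against replicate 1 and 4.88 against replicate 3, compared with 1.79 between those. It had the lowest SRF KO level of Zscan4a, Zscan4b and Zscan4f and of the sum of the copies. Without it the log2 fold changes were 1.71, 1.70, 1.71, 1.02 and 1.49 for Zscan4a, Zscan4b, Zscan4c, Zscan4d and Zscan4f.

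Levels of different genes can be compared only per length, for which CPM was divided by the length of all annotated exons of the copy in kb. On this scale the order in SRF KO was Zscan4f at 3.10 ± 0.460 CPM per kb, Zscan4b at 2.48 ± 0.410, Zscan4c at 1.77 ± 0.0706, Zscan4a at 1.51 ± 0.287 and Zscan4d at 0.975 ± 0.179 CPM per kb (SD, n = 3). All copies were measured in the same libraries, so neighbours in this order were compared within each library. Zscan4f lay above Zscan4b, and Zscan4b above Zscan4c, in 6 of 6 libraries. In WT, Zscan4f stood at 1.21 ± 0.258 and Zscan4b at 0.832 ± 0.256 CPM per kb (SD, n = 3). Zscan4c, Zscan4a and Zscan4d had 0.543, 0.520 and 0.489 CPM per kb in WT, with ranges that overlapped. Zscan4c was above Zscan4a, and Zscan4a above Zscan4d, in all 3 SRF KO libraries and in 2 of the 3 WT libraries. These orders were not tested, and they carry the uncertainty of how reads were divided among the copies.

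For a value that does not depend on how reads were divided among the copies, the counts of the 5 copies were summed in each library. The sum came to 559, 479 and 631 counts in the SRF KO libraries (replicates 1, 2 and 3) against 225, 245 and 186 counts in the WT libraries, in the same order. After scaling, the SRF KO libraries had 20.8, 18.1 and 21.8 CPM and the WT libraries 6.21, 9.52 and 6.48 CPM. The groups did not overlap, and the lowest SRF KO library was 1.9 times the highest WT library. Group means were 20.2 ± 1.92 CPM for SRF KO against 7.41 ± 1.84 CPM for WT (SD, n = 3), a 2.73-fold difference or 1.45 on the log2 scale. No p-value is given for the sum because the copies were chosen together with earlier results known. Without WT replicate 2 the log2 ratio was 1.68.

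The next question was whether the copies rose in proportion. In each library the share of each copy in the summed counts was taken, and the difference between groups was tested by exact permutation, two-sided, of all 20 ways to assign the libraries. The smallest p this test can give with 3 libraries a group is 0.1. Zscan4d made up 8.59%, 12.5% and 11.9% of the sum in the SRF KO libraries, against 13.3%, 13.5% and 18.8% in those of WT (replicates 1 to 3). Every SRF KO share was below every WT share, by 4.21 percentage points on average, with an exact permutation p of 0.1, or 0.5 after Benjamini-Hochberg adjustment over the 5 copies. Without WT replicate 3, the library with the highest share of Zscan4d, the difference was -2.40 points. Zscan4c moved the other way, from 16.3% ± 3.53 in WT to 20.1% ± 2.79 in SRF KO (SD, n = 3), with overlapping libraries and an exact permutation p of 0.2. That difference of 3.79 points became 1.82 points without WT replicate 3 and 2.24 points without SRF KO replicate 2. The shares of Zscan4a, Zscan4b and Zscan4f changed by 0.76, 1.94 and -2.28 percentage points, with exact permutation p of 0.8, 0.5 and 0.3. No difference in proportion between copies passed the threshold, which this design could not reach. The Wilson 95% intervals of single libraries, which cover counting error only, were several percentage points wide. For Zscan4d they were 9.86% to 15.8% in SRF KO replicate 2 and 9.75% to 18.3% in WT replicate 2.

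**Figure D2:**
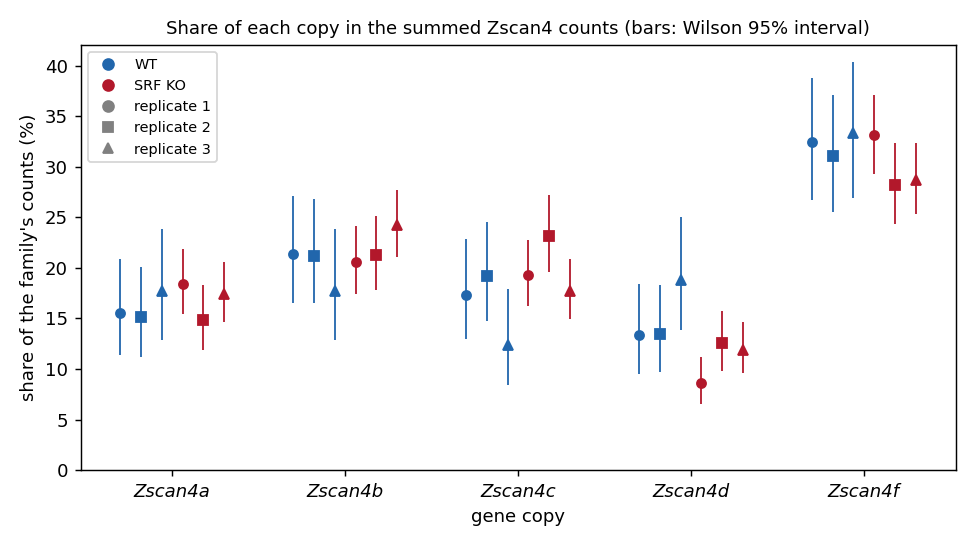
Share of each copy in the summed Zscan4 counts (percent, vertical axis) in each WT (blue) and SRF KO (red) library, with Wilson 95% intervals as bars. The Zscan4d points of SRF KO (8.59% to 12.5%) lie below those of WT (13.3% to 18.8%), and the points of the other 4 copies overlap between groups.

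The neighbourhood of the cluster was examined next. Within 1 Mb on either side of the annotated cluster and inside it, the table held 34 other entries, of which 28 had 0 counts in every library. Up to 3 counts, or 0.0828 to 0.117 CPM depending on the library, would still be compatible with such a 0. Most of these are receptor genes of the vomeronasal organ: the 19 Vmn1r entries had 1 count in all 6 libraries together. Only 3 of the 34 entries had enough counts to be tested, and none passed the threshold. Zik1, a zinc finger gene 298.8 kb before the first copy, averaged 17.7 CPM in the SRF KO and 17.2 CPM in the WT libraries (log2 fold change 0.05, SE 0.07, edgeR adjusted p 0.641). Zfp551 and Zfp606, zinc finger genes 801 kb and 864.2 kb beyond the last annotated Zscan4 gene, had log2 fold changes of -0.01 (SE 0.16) and -0.18 (SE 0.10), with edgeR adjusted p of 0.978 and 0.187.

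**Figure D3:**
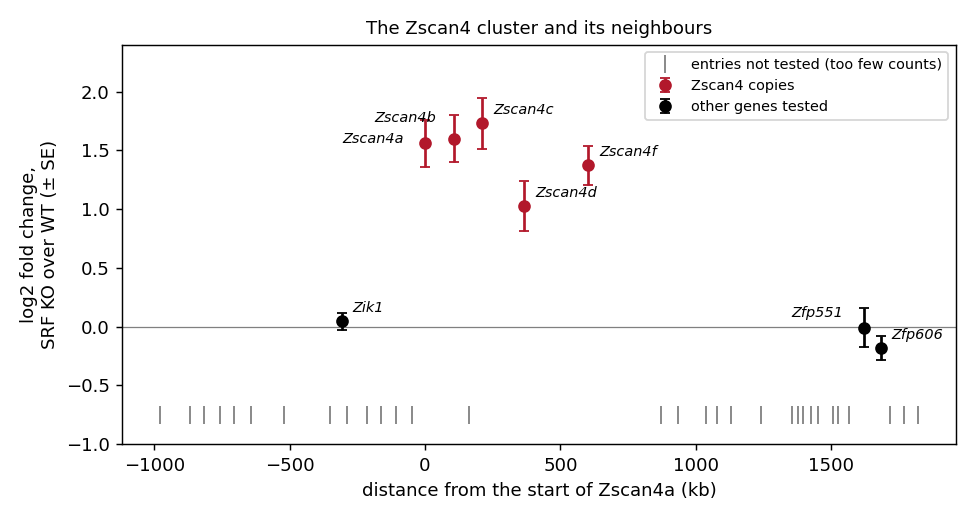
Log2 fold change with SE (vertical axis) of the entries tested around the Zscan4 cluster, by distance from the start of Zscan4a in kb, with grey ticks for the entries that had too few counts to be tested. The 5 Zscan4 copies lie between 1.03 and 1.73, and the 3 other genes tested between -0.18 and 0.05.

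Genes linked to Zscan4 were described from lists chosen for this purpose. Srf itself, the deleted gene, had 34.5 ± 4.14 CPM in WT, and 3.97 ± 0.707 CPM was left in SRF KO (SD, n = 3). Of the known or proposed activators of the 2-cell program, Dux, the gene of the DUX protein, had 5, 6 and 4 counts in SRF KO and 2, 1 and 4 counts in WT. These counts were too few for a test and overlapped between the groups. Dppa2, a chromatin factor that acts upstream of Dux, rose from 114 ± 5.69 CPM in WT to 149 ± 6.76 CPM (SD, n = 3; log2 fold change 0.39, SE 0.06, edgeR adjusted p 0.000178). Its partner Dppa4 was at -0.04 (edgeR adjusted p 0.633). Dppa3, a maternal factor also called Stella, fell by 2.08 on the log2 scale (SE 0.08, edgeR adjusted p 6.19e-09), which left 7.56 ± 0.377 of 32.0 ± 2.26 CPM (SD, n = 3). The elongation factor subunit Nelfa, the transcription factors Tbx3 and Gata2 and the 5-methylcytosine oxidase Tet2 did not pass the threshold, with log2 fold changes of -0.12, 0.07, -0.20 and 0.10. In all, 1 of 7 activators tested was higher and 1 lower, against 21.2% higher and 21.3% lower among all genes tested. The count of 2 became 4 without WT replicate 2.

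Other genes of the 2-cell stage were mostly too low to test. Of 32 listed genes in the table, 17 had too few counts. By edgeR, 13 of the 15 tested were higher in SRF KO and 0 lower, against 21.2% higher and 21.3% lower among all genes tested. At an unadjusted p under 0.05 the number lower was again 0, and DESeq2 called 11 higher and 0 lower. Of the 15, only Usp17le, Gm5662, Gm2027 and AU022751 reached the cutoff of the filter on low counts in every WT library. The rest passed only through the SRF KO libraries, which favours a call of higher. The count of 13 higher therefore says nothing of the list as a whole. Summed over all 32 genes, tested or not, the level was 15.8 to 19.2 CPM in the SRF KO libraries and 6.59 to 7.81 CPM in the WT libraries. The deubiquitinase gene Usp17le, which had at least 20 counts in every library, rose from 0.729 ± 0.113 CPM in WT to 2.15 ± 0.151 CPM (SD, n = 3; log2 fold change 1.57, SE 0.19, edgeR adjusted p 4.77e-05). Its relatives Usp17la and Usp17lc and the membrane protein gene Tmem92 rose by 2.36, 1.94 and 2.32 on the log2 scale. None of these 3 had more than 7 counts in a library of the WT group. They are among the genes that passed the filter only through the SRF KO libraries, which favours a call of higher. The 2 genes tested that did not pass were AU022751 at 0.03 and Pramef25 at 0.91. Of the MERVL elements, the internal part MERVL-int rose by 0.66 on the log2 scale (SE 0.06, edgeR adjusted p 9.67e-06) and MT2_Mm, the long terminal repeat, by 0.46 (SE 0.06, edgeR adjusted p 8.36e-05). Of 833 transposable element subfamilies tested, 5.88% were called higher. Both values lie below the 1.03 of Zscan4d, the smallest of the Zscan4 copies. Whether the rises of MERVL and Zscan4 differ was not tested.

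Silencers of the 2-cell program are chromatin proteins whose loss is known or thought to raise Zscan4 or MERVL in embryonic stem cells. Of 21 tested, 8 were lower and 1 was higher, against 21.3% lower and 21.2% higher among all genes tested, with a median of -0.12. The histone chaperone subunit Chaf1b fell by 0.36, the histone demethylase Kdm1a by 0.31 and the DNA methyltransferase Dnmt1 by 0.24 on the log2 scale, with edgeR adjusted p of 0.000112, 0.000206 and 0.00172. E2f6, a repressor of germ line genes, rose by 0.32 (edgeR adjusted p 0.00209). Rif1 and Trim28, at -0.12 and 0.02, did not pass the threshold. When either SRF KO replicate 1 or SRF KO replicate 3 was left out, 5 in place of 9 passed the threshold.

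Telomere proteins and meiosis genes were listed because ZSCAN4 acts at telomeres and has been placed together with meiotic recombination proteins there. Of 19 tested, 0 were higher and 7 lower by edgeR, against 21.2% higher and 21.3% lower among all genes tested, with a median of -0.09. At an unadjusted p under 0.05 the number higher was 1. DESeq2 called 0 higher, scaling by library totals or upper quartiles and the replicate block each gave 1 higher, and without WT replicate 2 there were 2 higher. Sycp3, of the synaptonemal complex, had 16.6 ± 3.47 CPM in WT and fell to 9.46 ± 1.10 CPM (SD, n = 3; log2 fold change -0.80, edgeR adjusted p 0.000721). The recombinase gene Dmc1, the helicase gene Blm and the shelterin gene Tinf2 fell by 0.56, 0.28 and 0.22. Tert, the catalytic subunit of telomerase, was at -0.20, with an edgeR adjusted p of 0.0887. Leaving out SRF KO replicate 1 reduced the 7 to 4, and leaving out SRF KO replicate 3 reduced them to 3.

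Other genes with a SCAN domain are the relatives of Zscan4 by protein domain. Of 27 tested, 1 was higher and 8 were lower, against 21.2% and 21.3% of all genes tested, with a median of -0.10 and a largest value of 0.26. The 1 gene past the threshold in the direction of Zscan4 was Zscan25, at 0.26 (edgeR adjusted p 0.0416), and this call was lost in 5 of the 6 fits that left out 1 library, all but the one without WT replicate 1. Zscan18, Zkscan8, Peg3 and Zscan26 fell by 0.28, 0.35, 0.22 and 0.26 on the log2 scale. Zscan10, a pluripotency factor of this group, was at 0.10 and did not pass. When either SRF KO replicate 1 or SRF KO replicate 3 was left out, 5 in place of 9 passed the threshold.

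**Figure D4:**
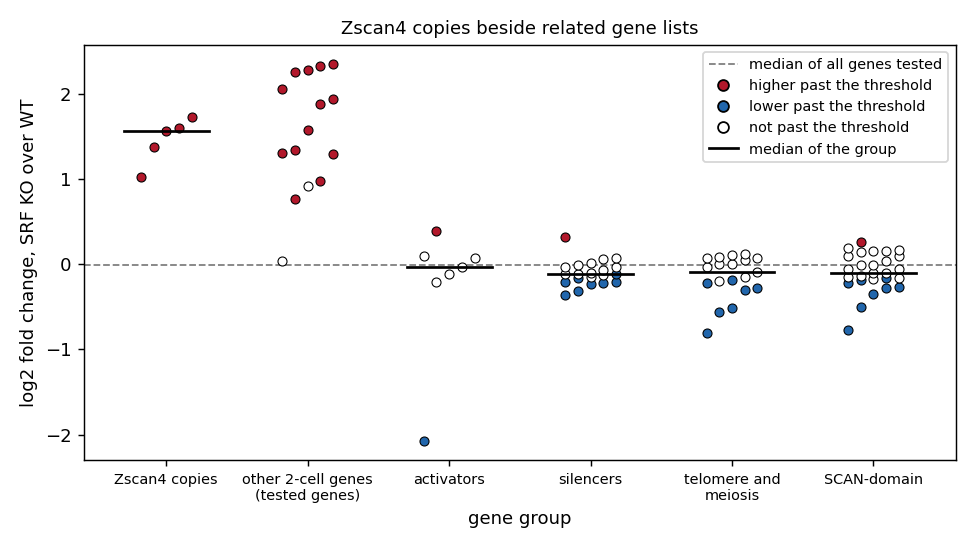
Log2 fold change of SRF KO over WT (vertical axis) for the 5 Zscan4 copies and for the tested genes of 5 related lists, filled where past the threshold, with a bar at each median and a dashed line at the median of all genes tested. The Zscan4 copies have a median of 1.56, and the medians of the 4 lists on the right lie between -0.12 and -0.04. No median is drawn for the other 2-cell genes, of which 17 of 32 had too few counts and are not shown.

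Genes whose profile was most like the summed Zscan4 level were sought among 14696 genes, by the root mean square difference of log2 CPM, each centred on its own mean over the 6 libraries. The closest was Usp17le, with a difference of 0.104 on the log2 scale. Cobll1 followed with 0.111, and Eva1a, Ctla2a and Serpina3n with 0.128, 0.128 and 0.132. For scale, the single copies differed from their own sum by between 0.0972 (Zscan4f) and 0.334 (Zscan4d). All 5 genes share the step between the groups and a highest WT value in WT replicate 2. This follows from the choice, which was made by likeness over these same 6 libraries. Serpina3n had at most 8 counts in a WT library and passed the filter on low counts only through the SRF KO libraries.

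**Figure D5:**
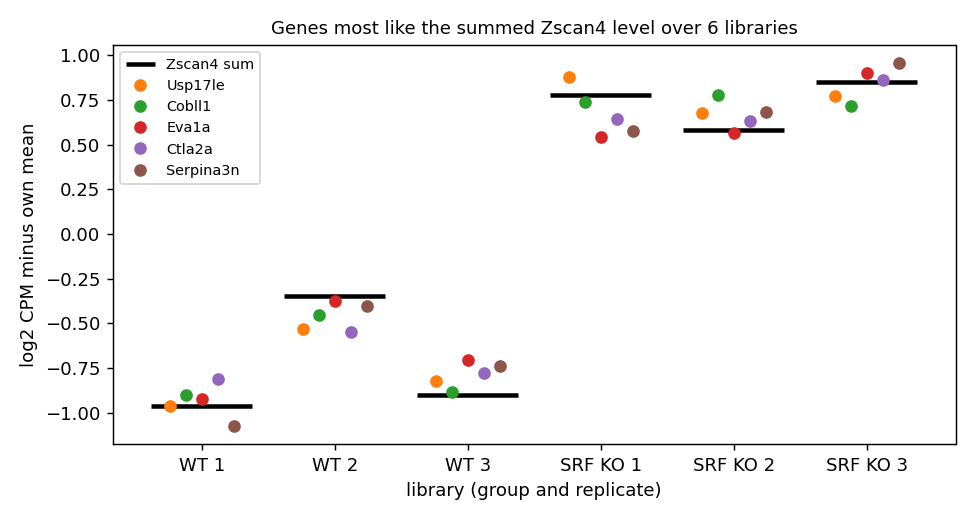
Log2 CPM minus the mean over the 6 libraries (vertical axis) of the summed Zscan4 copies (black bars) and of the 5 genes most like them (coloured points), by library. All 6 profiles are below their mean in the WT libraries, least so in WT replicate 2, and above it in the SRF KO libraries.

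Markers of other cell types moved with the same comparison. All 10 pluripotency markers listed were detected, with a summed level of 5222 to 5334 CPM in SRF KO against 6274 to 6761 CPM in WT. Of these 10, 5 were called lower and 1 higher, against 21.3% lower and 21.2% higher among all genes tested. Of 10 markers of primitive or visceral endoderm, the 9 tested were all higher, with a summed level of 1547 to 1666 CPM in SRF KO against 126.6 to 138.4 CPM in WT. Ttr was at 0 counts in all WT libraries. It and Foxa2 passed the filter on low counts only through the SRF KO libraries, which favours a call of higher. All 10 fibroblast markers were higher, with 772.1 to 924.5 CPM in SRF KO against 389.8 to 440.5 CPM in WT, and none was at 0 in a whole group. The part of these differences in the Zscan4 result was not tested.

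The libraries held between 26321602 and 36680156 counts in total, and the deepest library was WT replicate 1. Over the whole table, 42.4% of genes tested passed the threshold in either direction.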

How the data were processed

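RNA of 6 iPSC libraries was analysed from 1 deposited table of whole-number counts of reads per gene and per transposable element subfamily (24421 and 1146 entries), without normalization, judged from its values. Per the labels' protocols, the authors removed adaptor, low-quality and empty reads from 150 bp paired reads. The submitters' processing notes name mm10 (the same assembly as GRCm38) and DESeq2, without their role. The aligner, the counting program, its annotation, strand setting and treatment of reads that fit several places are not given in the sources used here. Each column was matched to its sample by name.

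All entries were fitted in R 4.3.3 with edgeR 4.0.16: filterByExpr (minimum count 10), TMM scaling and the quasi-likelihood test of SRF KO against WT without a replicate term, with Benjamini-Hochberg adjustment over all entries and a threshold of 0.05. DESeq2 1.42.0, other scalings, no filter, gene entries alone and fits without each library were tried as alternatives. Likeness used log2 CPM with a prior count of 0.5 and genes with a mean of at least 10 counts. Transcripts and promoters were aligned with MAFFT 7.526. Scripts were tested on simulated data. Wilson intervals and floors account for counting error alone, because reads that carry no molecular identifier need not be independent molecules.

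The members, lists, tests and the rule for named genes were chosen with earlier results of these data known. Zscan4a and Zscan4d entered by the rule once the table was read, and their alternatives were added then. Named besides the copies were Srf, MERVL-int, MT2_Mm, all counted activators, the 4 genes of each list with the smallest p past the threshold, and the 5 genes most like the sum. Neighbouring genes, AU022751, Pramef25, Gm5662, Gm2027, Rif1, Trim28, Tert, Zscan25, Zscan10, Ttr and Foxa2 were chosen after their values were seen.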

Additional observations from a re-analysis of the deposited data

How the results depend on the processing

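The 5 copies and their sum kept their direction, and the copies their call, in all 74 comparisons with an alternative that were run for them: DESeq2, library totals alone, upper-quartile factors, no filter, gene entries alone, the replicate block, each library left out, and each copy left out of the sum. Across these the log2 fold change was between 1.42 and 1.72 for Zscan4a, 1.46 and 1.85 for Zscan4b, 1.52 and 2.08 for Zscan4c, 0.83 and 1.16 for Zscan4d, and 1.26 and 1.55 for Zscan4f. The largest adjusted p was 0.0173, for Zscan4d. Because the groups did not overlap in any copy or in the sum, leaving out a library or a copy could hardly turn the direction. The kept direction in those comparisons therefore adds little. The log2 ratio of the sum was between 1.34 without WT replicate 1 and 1.68 without WT replicate 2. The alternatives for Zscan4a and Zscan4d were added after seeing the data.

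The labels do not say whether replicate numbers mark a pairing. Over 14778 genes, deviations from the group means correlated between SRF KO and WT libraries of the same number at 0.0503, 0.176 and 0.0804. Libraries of different number correlated at between -0.158 and 0.0897, the highest being SRF KO replicate 1 with WT replicate 3. These weak correlations do not settle whether the replicates were paired. With a replicate block the copies were at 1.56, 1.59, 1.74, 1.002 and 1.38 (Zscan4a to Zscan4f), all past the threshold, and 7512 genes were called in place of 6273.

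With each library left out in turn, the number called was between 2 and 4 for activators, 5 and 12 for silencers, 3 and 10 for telomere and meiosis genes and 5 and 8 for SCAN-domain genes. With library totals alone, 5 silencers were called. The difference in share was between -0.0056 and 1.80 percentage points for Zscan4a, so that its sign turned without SRF KO replicate 1. It was between 0.76 and 2.67 points for Zscan4b, 1.82 and 5.23 for Zscan4c, -5.14 and -2.40 for Zscan4d, and -3.83 and -1.38 for Zscan4f. The cause was not tested. At this depth Dux and 17 of the 32 other 2-cell genes could not be tested.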
